A study of Mus musculus with 12 samples.

Results

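De novo lipogenesis is the pathway by which liver turns surplus carbohydrate into fatty acid, and 10 of its genes (Fasn, Acaca, Acacb, Acly, Scd1, Elovl6, Me1, Thrsp, Srebf1, and Mlxipl) were followed here in mouse liver RNA-Seq. They were taken by symbol from the 22456 genes of the expression table. The rule names no measured value, but it was set with earlier results of these data known. All 10 passed the filter on low values that left 11507 genes for testing. Mice were male BALB/cByJ on chow, aged 2 to 8 months, either Lpin1-/- (homozygous for the fatty liver dystrophy, FLD, allele, an inherited mutation carried in every tissue) or wild-type (WT) littermates. Fasted liver was taken after 16 hours without food, and refed liver after 5 hours of chow that followed the same fast. Feeding state and time of day therefore cannot be told apart. There were 3 mice in each of the 4 groups, and 1 library per mouse.

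In the fed liver, citrate leaves the mitochondrion and is split to acetyl-CoA, which is carboxylated to malonyl-CoA and then built into palmitate. Elongation and desaturation follow. The enzymes of this chain are under the control of SREBP-1c, which responds to insulin, and ChREBP, which responds to products of glucose metabolism. Fasting is known to lower the expression of the pathway and refeeding to raise it. Lipin 1, the product of Lpin1, is both a phosphatidic acid phosphatase of triglyceride synthesis and a coregulator of transcription factors in the nucleus, and Lpin1-/- mice are known for a fatty liver early in life.

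Levels are given as RPKM, in which reads are scaled both for the length of the gene and for the size of the library, so that genes can be compared with one another. Lpin1 itself was at 0.726 to 22.0 RPKM in the 6 WT libraries and at 0.00573 to 0.0597 RPKM in the 6 Lpin1-/- libraries, with no overlap in either state. Even so, the limma test described below did not call it. Its genotype difference on the log2 scale was −2.19 in fasted liver (adjusted p = 0.056) and −1.55 in refed liver (adjusted p = 0.23). Markers of hepatocytes were high in all 12 libraries. The summed level of 8 such markers was 34551 to 68598 RPKM in refed WT liver, lowest in library 2, and 59787 to 78075 RPKM over the other groups. Among adipocyte markers, Adipoq, Plin1, Lep, Retn, and Cfd were near 0 everywhere, whereas the summed level of the 6 markers was 68.6 to 96.4 RPKM in fasted Lpin1-/- liver and 10.4 to 18.1 RPKM in fasted WT liver, nearly all of it Fabp4. Markers of other cell types also stood apart in single libraries. The summed level of 6 cholangiocyte markers was 452 RPKM in Lpin1-/- fasted library 1, mostly Spp1 (430 RPKM), and 19.2 to 103 RPKM in the other 11 libraries. Epcam (10.8 RPKM), Krt19 (5.51 RPKM), Krt7 (2.29 RPKM), and Cftr (0.144 RPKM) were also highest in that library, and Sox9 was not. The summed level of 6 Kupffer cell markers was highest in WT refed library 2 (273 RPKM) and Lpin1-/- fasted library 1 (243 RPKM), and it was 36.4 to 163 RPKM elsewhere. That of 6 hepatic stellate cell markers was 190 to 274 RPKM in fasted Lpin1-/- and 64.9 to 153 RPKM in fasted WT liver, and 156 to 198 RPKM and 67.8 to 180 RPKM after refeeding. Most of this sum was Dcn, at 179 to 264 RPKM in fasted Lpin1-/- and 61.8 to 144 RPKM in fasted WT liver. Des was also higher in every fasted Lpin1-/- library, whereas Lrat, Reln, Col1a1, and Pdgfrb overlapped between the fasted genotypes. The part of other cell types in the results was not tested, and in bulk tissue fewer cells of a type and less RNA per cell cannot be told apart. The steps of low RPKM values placed the deepest library 1.34 times above the shallowest. Libraries also differed in the level of long genes relative to short ones. With genes in 5 length bins, the median deviation of the longest bin minus that of the shortest was 0.82 on the log2 scale in WT fasted library 1 and 0.77 in Lpin1-/- refed library 1, and it was −0.78 in Lpin1-/- fasted library 1 and −0.61 in WT fasted library 2. In the other 8 libraries it lay between −0.16 and 0.16. Several members have long transcripts, so values after removal of each library's trend with gene length (a length adjustment) are given where they change a call.

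Refeeding raised 4 of the 10 genes in Lpin1-/- liver (Fasn, Acaca, Elovl6, and Mlxipl) and 1 in WT liver (Thrsp), by limma on log2(RPKM + 1) with Benjamini-Hochberg adjustment over all genes. Of all tested genes, 17.8% rose past the same threshold of 0.05 on refeeding in Lpin1-/- liver and 2.92% fell, and in WT liver 1.52% rose and 0.2% fell. Between genotypes, Scd1 and Thrsp were higher in fasted Lpin1-/- than in fasted WT liver, 2 of 10 genes beside 5.63% of all genes higher and 13.2% lower. In refed liver only Scd1 of the 10 passed the test, again higher in Lpin1-/- liver, beside 2.6% of all genes higher and 4.07% lower. With the replicate number as a block in a fit of the 6 refed libraries, Acaca and Acacb passed in place of Scd1. This fit was added after seeing the data, and the labels do not say what a replicate number marks. No member fell in any of the 4 comparisons. The split of all genes past the threshold moved with the scale of the libraries. Genes that were higher made up 88.4% and 85.9% of those called on refeeding in WT and Lpin1-/- liver and 29.9% and 39% of those called by genotype in fasted and refed liver, and after rescaling, in which a library is divided by the median of its gene-wise ratios to the average library, they made up 64%, 68.8%, 41%, and 57.8%. That rescaling moved the median refeeding change of all genes from 0.19 to −0.0012 in WT and from 0.25 to 0.059 in Lpin1-/- liver. Member changes on refeeding are to be read relative to this shift. After rescaling, Acaca (2.02, adjusted p = 0.00078) and Mlxipl (1.19, adjusted p = 0.038) were the members that rose in Lpin1-/- liver, beside 1255 of all 11459 genes. No member rose in WT liver, beside 32 of all 11459 genes. The difference in the refeeding change between genotypes passed the threshold for 0 of 10 genes by limma (1.28% of all genes). At an unadjusted p under 0.05 there were 3 members in that comparison, which were Acaca, Thrsp, and Mlxipl. The same threshold held 18.1% of all genes.

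**Figure D1:**
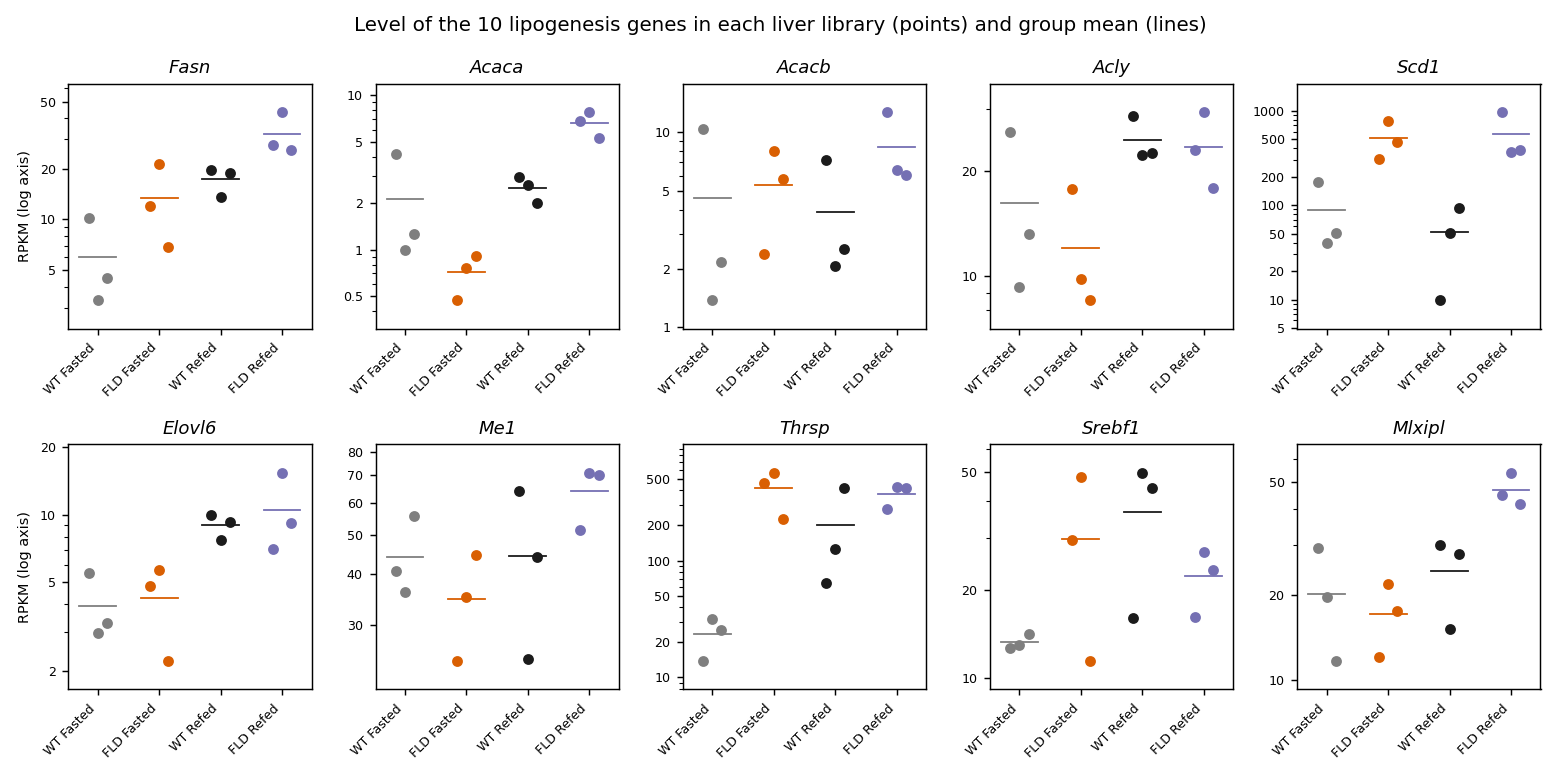
Level in RPKM (log axis) of the 10 lipogenesis genes in each of the 12 liver libraries. Points are libraries (Lpin1-/- groups carry the label FLD) and lines are the means of 3. Scd1 and Thrsp show fasted Lpin1-/- points above all fasted WT points, and Fasn, Acaca, and Mlxipl show refed Lpin1-/- points above all other points.

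Carbon and reducing power enter the pathway first. ATP citrate lyase, encoded by Acly (GRCm38 chromosome 11, 100476353 to 100528000, minus strand), cleaves cytosolic citrate to acetyl-CoA. In fasted liver Acly was at 25.9, 9.32, and 13.3 RPKM in the 3 WT libraries and at 17.8, 9.81, and 8.55 RPKM in the Lpin1-/- libraries. After refeeding it was at 28.7, 22.1, and 22.4 RPKM in WT and at 23.0, 29.4, and 17.9 RPKM in Lpin1-/- liver. The genotypes overlapped in both states. The refeeding difference was 0.68 ± 0.35 (log2, SE) in WT and 0.94 ± 0.35 in Lpin1-/- liver, with adjusted p = 0.42 and 0.078. The second passed without WT fasted library 1 (0.94, adjusted p = 0.031) or Lpin1-/- fasted library 1 (1.24, adjusted p = 0.047). The fasted and refed Lpin1-/- libraries did not overlap, whereas in WT liver the highest fasted library lay among the refed ones.

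Malic enzyme 1, encoded by Me1 (chromosome 9, 86581371 to 86695953, minus strand), makes NADPH in the cytosol. Me1 was at 40.9, 36.1, and 55.6 RPKM in fasted WT and at 24.5, 35.1, and 44.6 RPKM in fasted Lpin1-/- liver. It was at 64.0, 24.8, and 44.2 RPKM in refed WT and at 51.3, 71.1, and 70.1 RPKM in refed Lpin1-/- liver. The fasted WT range lay within the refed WT range, and every refed Lpin1-/- library was above every fasted Lpin1-/- one. The refeeding difference was 0.89 ± 0.33 in Lpin1-/- liver (adjusted p = 0.075, or 0.035 without WT refed library 2) and −0.07 ± 0.33 in WT liver (adjusted p = 0.95). The difference between these changes, 0.96 ± 0.46, had an adjusted p of 0.30.

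Acetyl-CoA carboxylases make malonyl-CoA. ACC1, encoded by Acaca, supplies it for synthesis in the cytosol, and ACC2, encoded by Acacb, is held at the outer mitochondrial membrane, where malonyl-CoA restrains the entry of fatty acids for oxidation. Acaca lies on chromosome 11 at 84129672 to 84401651 and Acacb on chromosome 5 at 114146535 to 114250761, both on the plus strand. Acaca was at 4.15, 1.00, and 1.27 RPKM in fasted WT and at 0.469, 0.763, and 0.908 RPKM in fasted Lpin1-/- liver. In refed liver Acaca stood at 2.94, 2.62, and 2.01 RPKM in WT and at 6.84, 7.82, and 5.32 RPKM in Lpin1-/- mice. All 3 fasted Lpin1-/- libraries were thus the lowest of the 12, and all 3 refed Lpin1-/- libraries were the highest. Acaca rose by 2.16 ± 0.31 on the log2 scale on refeeding of Lpin1-/- mice (adjusted p = 0.0015), and the interval of this change ran from 1.47 to 2.84. The corresponding difference in WT mice was 0.29 ± 0.31 (adjusted p = 0.72).

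Against WT, Acaca differed by −0.75 ± 0.31 in fasted liver (adjusted p = 0.12) and by 1.12 ± 0.31 in refed liver (adjusted p = 0.058). The refeeding change was larger in Lpin1-/- liver by 1.86 ± 0.44, with an unadjusted p of 0.0014 and an adjusted p of 0.067. Acaca has the longest exonic sequence of the 10 genes, 17074 bases. The library in which long genes read highest in WT liver (WT fasted 1) also gave the highest fasted value. Whether gene length set the Acaca value of that library was not tested. Without that library the interaction was 1.44 (adjusted p = 0.043) and the refed genotype difference of 1.12 passed the threshold (adjusted p = 0.0076). Without WT fasted library 2 the interaction was 2.12 (adjusted p = 0.047), the refed difference passed as well (adjusted p = 0.044), and the fasted difference was −1.005 (adjusted p = 0.049). After the length adjustment the interaction was 1.43 (adjusted p = 0.021) and the refed genotype difference 1.01 (adjusted p = 0.0089). With the replicate block in the 6 refed libraries the latter was 1.12 (adjusted p = 0.029).

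Acacb had the widest spread between fasted WT mice of the 10 genes, relative to its mean. Its 3 values there were 10.3, 1.38, and 2.17 RPKM, and those of fasted Lpin1-/- liver were 2.39, 8.04, and 5.75 RPKM. Refed liver held 7.18, 2.06, and 2.51 RPKM in WT and 12.7, 6.38, and 6.02 RPKM in Lpin1-/- mice. All 4 groups overlapped one another. No comparison passed the test with all 12 libraries, and the interval of the genotype difference in refed liver, from −0.29 to 2.30 on the log2 scale, is wide. With the replicate block in the 6 refed libraries that difference passed (1.00, adjusted p = 0.039).

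Fatty acid synthase, encoded by Fasn (chromosome 11, 120805846 to 120824547, minus strand), carries out all steps from malonyl-CoA to palmitate. Fasn was at 10.3, 3.31, and 4.50 RPKM in fasted WT and at 11.9, 21.2, and 6.86 RPKM in fasted Lpin1-/- liver. It reached 19.8, 13.6, and 18.9 RPKM in refed WT and 27.5, 43.4, and 25.7 RPKM in refed Lpin1-/- liver. In each genotype the refed libraries were all above the fasted ones, and the refed Lpin1-/- libraries were above the refed WT ones. The refeeding change was 1.50 ± 0.41 in WT (adjusted p = 0.11) and 1.30 ± 0.41 in Lpin1-/- liver (adjusted p = 0.045). The interval of the difference between these changes ran from −1.47 to 1.08.

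The Fasn calls were near the threshold. Leaving out WT fasted library 1 gave 1.90 for refeeding in WT (adjusted p = 0.044) and 1.43 for the genotype difference in fasted liver (adjusted p = 0.031, beside 1.03 and 0.11 with all libraries). The latter also passed without Lpin1-/- fasted library 3 (1.40, adjusted p = 0.044). The change in Lpin1-/- liver lost its call without WT fasted library 3, WT refed library 1 or 3, Lpin1-/- fasted library 1 or 3, or any refed Lpin1-/- library, with values between 0.93 and 1.44. It was 0.75 with an adjusted p of 0.17 after the length adjustment, which gave the genotype difference in fasted liver a call (1.35, adjusted p = 0.021). That difference also passed without WT fasted library 1 and Lpin1-/- refed library 1 together (1.43, adjusted p = 0.039).

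Palmitate is lengthened by the elongase ELOVL6, and the products of both steps are desaturated by stearoyl-CoA desaturase 1, encoded by Scd1. Elovl6 lies on chromosome 3 at 129532355 to 129638495, plus strand, and Scd1 on chromosome 19 at 44394455 to 44407879, minus strand. Elovl6 was at 5.52, 2.97, and 3.30 RPKM in fasted WT and 4.79, 5.69, and 2.22 RPKM in fasted Lpin1-/- liver, and refed liver held 10.02, 7.72, and 9.27 RPKM in WT and 7.03, 15.4, and 9.17 RPKM in Lpin1-/- mice. Refed and fasted libraries did not overlap in either genotype, and the genotypes overlapped in both states. Elovl6 rose by 1.14 ± 0.33 in Lpin1-/- liver (adjusted p = 0.031), and the WT difference was 1.05 ± 0.33 (adjusted p = 0.16). The Lpin1-/- call was lost without Lpin1-/- fasted library 1 or 3 or refed library 2 or 3 (adjusted p = 0.056 to 0.13), and the length adjustment gave 0.65 (adjusted p = 0.19).

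Scd1 was the member with the largest genotype difference in refed liver. It was at 177, 39.2, and 50.3 RPKM in fasted WT and at 311, 775, and 468 RPKM in fasted Lpin1-/- liver. Refed WT libraries held 9.80, 51.1, and 94.3 RPKM and refed Lpin1-/- libraries 969, 367, and 379 RPKM. Every Lpin1-/- library was above every WT library of either state. The difference was 2.76 ± 0.78 in fasted liver (adjusted p = 0.029) and 3.77 ± 0.78 in refed liver (adjusted p = 0.017).

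Feeding had no detectable effect on Scd1 in these data. Its refeeding difference was −0.92 ± 0.78 in WT (adjusted p = 0.63) and 0.09 ± 0.78 in Lpin1-/- liver (adjusted p = 0.95), with intervals from −2.62 to 0.77 and from −1.61 to 1.78. The fasted genotype call was lost without WT fasted library 2 or 3 or Lpin1-/- fasted library 2 or 3 (2.34 to 2.78, adjusted p = 0.064 to 0.11). The refed call was lost without Lpin1-/- refed library 1 (3.31, adjusted p = 0.075) and with the replicate block in the 6 refed libraries (3.77, adjusted p = 0.067).

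Thrsp (chromosome 7, 97412938 to 97417730, minus strand) encodes the small acidic protein Spot 14, which is abundant where fatty acids are made and was first known as a thyroid hormone-responsive transcript. It was at 13.8, 31.9, and 25.6 RPKM in fasted WT and at 457, 565, and 229 RPKM in fasted Lpin1-/- liver. In refed WT liver it was at 64.0, 126, and 416 RPKM, and in refed Lpin1-/- liver at 277, 429, and 416 RPKM. Fasted WT libraries were the lowest 3 of the 12, and the ranges of the other 3 groups overlapped. The genotype difference in fasted liver, 4.06 ± 0.58 (adjusted p = 0.0013), was the largest change of any member and held without any 1 library.

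Refeeding raised Thrsp by 2.68 ± 0.58 in WT liver (adjusted p = 0.045), and the difference in Lpin1-/- liver was −0.09 ± 0.58 (adjusted p = 0.93). The difference between these changes, −2.77 ± 0.83, had an unadjusted p of 0.0062 and an adjusted p of 0.12. The WT call was lost without any 1 of 10 of the 12 libraries, with changes of 1.95 to 2.93, and of these fits it held only without WT refed library 1 or Lpin1-/- fasted library 3. After the length adjustment it was 2.53 (adjusted p = 0.058). Without WT refed library 3 the genotype difference in refed liver passed (2.02, adjusted p = 0.045, beside 1.29 and 0.22 with all libraries). Its paralog Mid1ip1, which encodes a partner of the carboxylases, rose in Lpin1-/- liver on refeeding (2.67 ± 0.42, adjusted p = 0.0020), with 1.37 ± 0.42 in WT liver (adjusted p = 0.15, or 0.044 without Lpin1-/- refed library 1).

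**Figure D2:**
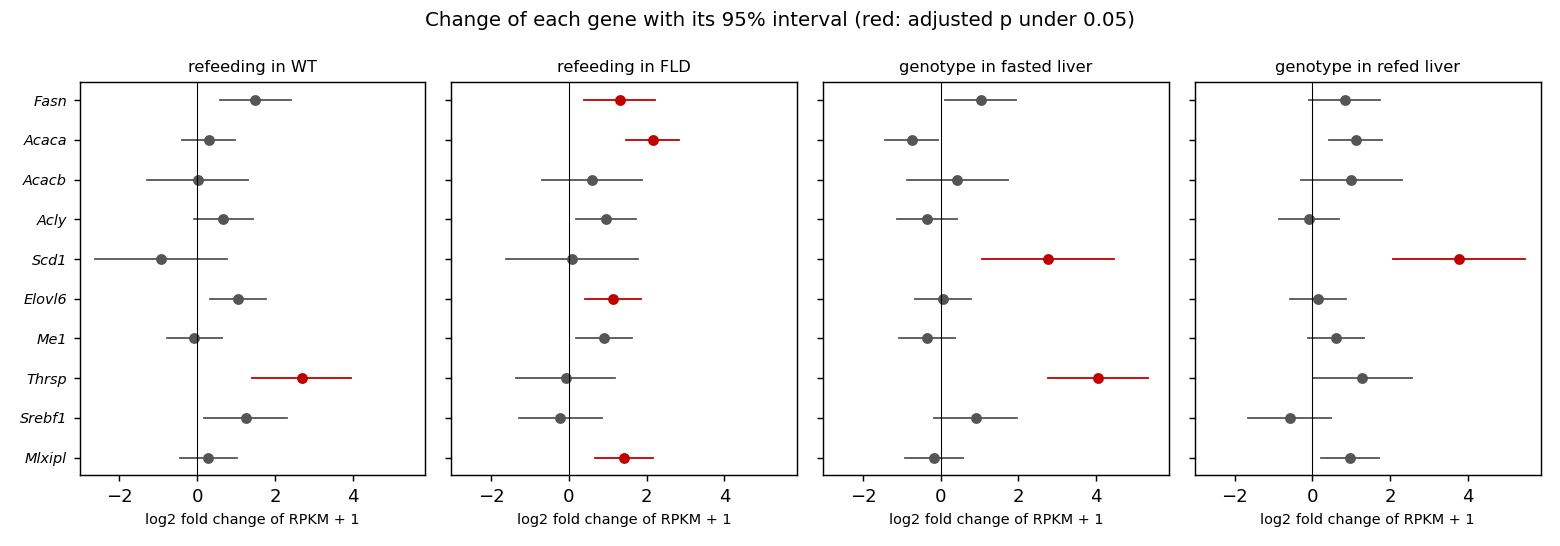
Log2 fold change of RPKM + 1 for each gene (points) with its 95% interval (lines) in the 4 comparisons, in red where the adjusted p was under 0.05. The estimates for Scd1 and Thrsp lie farthest to the right in fasted liver by genotype, at 2.76 and 4.06.

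Of the 2 regulators among the members, only Mlxipl passed a test of its RPKM level. Srebf1 (chromosome 11, 60199089 to 60222581, minus strand) encodes SREBP-1, which is made as a membrane-bound precursor and released to the nucleus by proteolysis. Its mRNA was at 12.7, 12.9, and 14.1 RPKM in fasted WT liver, the tightest group of any member relative to its mean, and at 29.5, 48.2, and 11.4 RPKM in fasted Lpin1-/- liver. In refed liver it was at 16.0, 49.8, and 44.3 RPKM in WT and at 16.2, 26.9, and 23.4 RPKM in Lpin1-/- mice. Of the 4 comparisons, only fasted against refed WT liver had no overlap. The WT refeeding difference was 1.25 ± 0.49 (adjusted p = 0.27), and that of Lpin1-/- liver was −0.23 ± 0.49 (adjusted p = 0.77). The change in Lpin1-/- minus that in WT liver was −1.48 ± 0.69 (adjusted p = 0.29). By genotype, the fasted difference was 0.90 ± 0.49 (adjusted p = 0.23), and it passed without Lpin1-/- fasted library 3 (1.45, adjusted p = 0.046).

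Mlxipl (chromosome 5, 135089890 to 135138382, plus strand) encodes ChREBP. It was at 29.1, 19.7, and 11.7 RPKM in fasted WT and at 12.1, 21.7, and 17.6 RPKM in fasted Lpin1-/- liver. Refed WT libraries were at 29.9, 15.1, and 27.8 RPKM and refed Lpin1-/- libraries at 44.9, 53.7, and 41.6 RPKM. All 3 refed Lpin1-/- libraries were above the other 9. Mlxipl rose by 1.43 ± 0.34 on refeeding of Lpin1-/- mice (adjusted p = 0.014), and the WT difference was 0.29 ± 0.34 (adjusted p = 0.75). The call was lost without Lpin1-/- fasted library 1 (1.21, adjusted p = 0.057) or refed library 2 (1.32, adjusted p = 0.060). The interaction was 1.14 ± 0.48 (unadjusted p = 0.036, adjusted p = 0.24).

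Across the 10 genes, the groups did not overlap for 4 members on refeeding in WT, 6 on refeeding in Lpin1-/-, 3 by genotype in fasted liver, and 4 by genotype in refed liver. The shares of all tested genes were 18.1%, 46.8%, 32.9%, and 33.9%. The median member change was 0.48, 0.92, 0.24, and 0.90 on the log2 scale, beside 0.19, 0.25, −0.14, and −0.07 over all genes. The paired comparisons share groups, so their values are not independent of one another.

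Some members are read from more than 1 first exon, and the deposited junction counts separate these. At Srebf1 on chromosome 11, minus strand, GENCODE M21 (GRCm38) places a far first exon at 60220453 to 60220604, with 91 coding bases, and a near one at 60210336 to 60210465, with 19 coding bases. Both join exon 2, at 60206838 to 60207257. The far exon begins the longer SREBP-1a protein and the near exon SREBP-1c, the form that predominates in liver. The 2 junctions read as follows, with the last 15 bases of the first exon in capitals and the first 15 bases of exon 2 in lower case, and they are shown because only the capitals tell the transcripts apart.
SREBP-1a junction: TGAACGACATCGAAGacatgctccagctca
SREBP-1c junction: ATTGCACATTTGAAGacatgctccagctca

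In fasted liver the SREBP-1c junction had 30, 38, and 36 reads in the WT libraries and 78, 154, and 35 reads in the Lpin1-/- libraries. The SREBP-1a junction had 75, 23, and 39 reads in WT and 32, 57, and 44 reads in Lpin1-/- liver. SREBP-1c thus made up 28.6%, 62.3%, and 48.0% of both in WT and 70.9%, 73.0%, and 44.3% in Lpin1-/- liver. The mean was 46.3% ± 16.9 (SD, n = 3) against 62.7% ± 16.0, and a two-sided exact permutation test gave p = 0.3, where the smallest p that 3 against 3 libraries allow is 0.1. In refed liver the SREBP-1c junction had 39, 257, and 171 reads in WT and 73, 135, and 103 reads in Lpin1-/- mice. These counts are listed by position within a group, and the position is not tied to the library numbers of the RPKM values. Reads of the libraries were not scaled for depth here.

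A further annotated first exon of Srebf1, without coding bases, lies at 60222523 to 60222581. Its junction to exon 2 had 1, 0, and 6 reads in fasted WT and 0, 2, and 0 reads in fasted Lpin1-/- liver, and 8, 17, and 17 reads in refed WT and 1, 0, and 4 reads in refed Lpin1-/- liver. In the refed event that sets this junction against inclusion of the SREBP-1a first exon, listed there at 60220453 to 60220625, inclusion was 83.5%, 78.3%, and 76.9% in WT and 98.7%, 100%, and 90.6% in Lpin1-/- liver. The groups did not overlap, as for 4.79% of all refed events in this direction, and the difference was 3.24 ± 0.85 on the log2 scale (unadjusted p = 0.0034, adjusted p = 0.11).

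At Mlxipl on chromosome 5, plus strand, the coding first exon lies at 135106918 to 135107215. A first exon without coding bases lies 17028 bases upstream at 135089890 to 135090060. Both join exon 2 at 135113627 to 135113733. The upstream exon is the known start of ChREBP-β, a shorter and more active form made from a promoter that ChREBP itself drives. The junctions are shown with the first exon in capitals.
Coding first exon: GAGCCTGGCTTACAGtggcaagctggtctc
Upstream first exon: TCGCGTGGAGCTCAGtggcaagctggtctc

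In refed liver the junction from the upstream exon to exon 2 had 3, 3, and 8 reads in the WT libraries and 34, 94, and 34 reads in the Lpin1-/- libraries. The inclusion form, which counts reads on 117 bases of the coding first exon (135107099 to 135107215) and its junctions, had 443, 253, and 447 reads in WT and 838, 909, and 669 reads in Lpin1-/- liver. Per 100 inclusion reads, the upstream junction had 0.677, 1.19, and 1.79 reads in WT and 4.06, 10.3, and 5.08 reads in Lpin1-/- liver, or 1.22 ± 0.557 against 6.49 ± 3.37 (SD, n = 3). The groups did not overlap, and a two-sided exact permutation test gave p = 0.1, the smallest that 3 against 3 allows. In limma over all exon events the inclusion ratio in Lpin1-/- liver differed from WT by −2.24 ± 0.62 on the log2 scale (unadjusted p = 0.0047, adjusted p = 0.13). Groups that did not overlap in this direction made up 9.45% of all events in refed liver. The event was not listed for fasted liver.

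**Figure D3:**
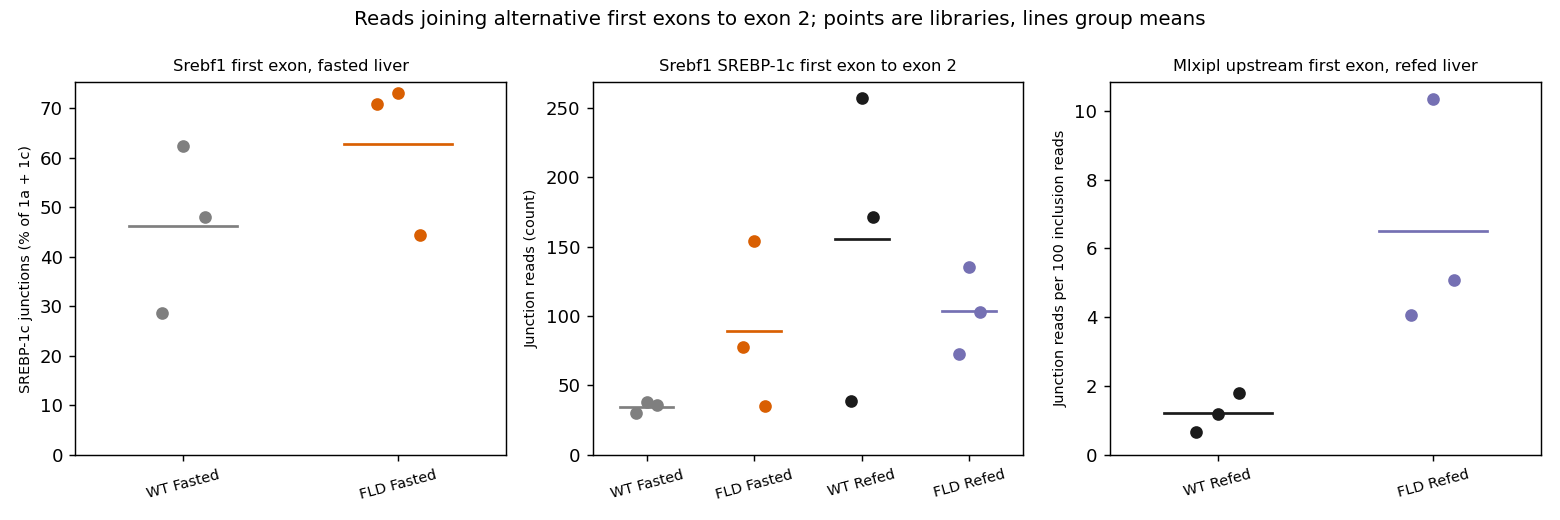
Reads that join alternative first exons to exon 2, with libraries as points and group means as lines. The left panel gives SREBP-1c as a percentage of SREBP-1a and SREBP-1c junctions in fasted liver, the middle panel the SREBP-1c junction count in all 4 groups, and the right panel the upstream Mlxipl junction per 100 inclusion reads in refed liver, where all 3 Lpin1-/- points (4.06 to 10.3) lie above the WT points (0.677 to 1.79).

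Promoter sequence was searched 250 bases before and 50 after each RefSeq start (GRCm38.p6), in 13 windows of 9 members. Scd1 had none in the table. The letters searched on both strands were the CCAAT box (CCAAT, bound by NF-Y), the GC box (GGGCGG, bound by Sp1), the E-box (CACGTG, bound by ChREBP and USF among others), the sterol response element (TCACNCCAC), 2 copies of CACGTG with 5 bases between them (the carbohydrate response element), and 2 copies of AGGTCA with 4 bases between them (the LXR repeat). The fifth pattern contains the third. The sterol response element and the E-box each occurred in 1 member window, both at Mlxipl, beside 1.24% and 7.15% of all 32851 windows. CCAAT was in 8 of 13 member windows, those of Fasn, Acacb, Acly, Me1, Thrsp, Srebf1, and Mlxipl, beside 37.4% of all windows. The GC box was in 5 of 13, beside 35.7%. The last 2 patterns were in no member window and in 0.0% and 0.0152% of all windows. Absence of letters this rare cannot set the members apart from other genes. The following windows, with the matched letters in capitals, are those of the upstream start of Mlxipl, of its coding start, of SREBP-1c, and of Fasn.
Mlxipl upstream start, chr5:135089780-135089809, plus strand, E-box: gcggctgccatcCACGTGctaaggagagaa
Mlxipl coding start, chr5:135106745-135106774, plus strand, sterol response element: atcagtggttTCACACCACgctcactggtt
Srebf1, SREBP-1c start, chr11:60210484-60210513, minus strand, CCAAT box on the opposite strand: gcgcggctgctgATTGGccatgtgcgctca
Fasn, chr11:120824592-120824621, minus strand, CCAAT box: cggcctcggtgtCCAATtggtttcgatgtg

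A match is a description of letters and says nothing of binding in these mice.

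Exon skipping within the members was compared next, since the series asked how lipin 1 deficiency affects splicing in the fasted liver. Each event sets reads that include an exon against reads that join its neighbors, both per effective length. In fasted liver 110 events were listed in members, over 62 exons once overlapping coordinates were merged, and 103 could be tested. The test passed for 10 of these 103 events, beside 11.3% of all 69644 events. Of these, 9 had lower inclusion of a coding exon in Lpin1-/- liver, the direction of 7.81% of all events, and 1 had higher inclusion of an unannotated segment. They lay in 3 genes, with 8 in Srebf1 and 1 each in Acaca and Acacb. Several describe the same exon with slightly different ends and share reads, so the 10 events are 5 exons. In refed liver 0 of 97 member events passed by limma (0.97% of 65231 events), and 13 had an unadjusted p under 0.05 (14.3% of all events).

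The largest log2 difference among these, whose size depends on the 0.5 added to counts of 0, was at exon 3 of 19 of the longest coding transcript of Srebf1, which has 179 coding bases at 60206395 to 60206573. Skipping it joins exon 2 to exon 4, and 179 is not a multiple of 3. The junctions are shown with exon 2 in capitals.
Exon 3 included: CTTCAGGCTTCTCAGggacccttccaggaa
Exon 3 skipped: CTTCAGGCTTCTCAGgttgtactgcagcca

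The skipping junction had 0 reads in each fasted WT library, beside 648, 352, and 572 inclusion reads, and a count of 0 allows skipping of up to 0.191% of the reads summed over the 3 WT libraries. This bound is a share of raw reads, and it is higher on the scale per effective length of the inclusion percentages that follow. In fasted Lpin1-/- liver it had 45, 122, and 8 reads beside 296, 767, and 378 inclusion reads. Inclusion was 100% in every WT library and 64.4%, 63.4%, and 92.9% in the Lpin1-/- libraries. The log2 ratio of inclusion to skipping differed by −6.38 ± 0.86 (adjusted p = 0.00096).

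Srebf1 exons 14 and 15 showed the same kind of difference toward the 3′ end of the transcript. Exon 14 (110 bases, 60201796 to 60201905) was included at 98.8%, 100%, and 100% in fasted WT and at 76.4%, 70.6%, and 91.5% in fasted Lpin1-/- liver (−5.00 ± 0.83, adjusted p = 0.0027). Exon 15 (133 bases, 60201580 to 60201712) was included at 100% in each WT library and at 81.4%, 86.5%, and 98.6% in Lpin1-/- liver (−5.17 ± 0.95, adjusted p = 0.0045). Neither length is a multiple of 3. In all 3 exons the first 2 Lpin1-/- libraries of the list had more skipping than the third.

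Fasn had a like pattern that did not pass. Its exon 36 of 43 (152 coding bases, chromosome 11, 120810130 to 120810281, minus strand) had 0 skipping reads in each fasted WT library and 38, 87, and 0 in the Lpin1-/- libraries, so inclusion was 78.5%, 76.7%, and 100% there (−3.85 ± 1.36, adjusted p = 0.090). Without the third Lpin1-/- library of the list the difference was −5.89 (adjusted p = 0.0038). In that fit 22 member events passed the threshold, beside 9479 of all 69995 events. With all 6 fasted libraries 7892 of 69644 events passed. The Fasn junctions are shown for comparison, with exon 35 in capitals.
Exon 36 included: CCTGAACCTTGACAGggcaacccgggaagc
Exon 36 skipped: CCTGAACCTTGACAGgccttgccgtgcagt

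After refeeding these exons, with their annotated ends, were included at 96.9% or more in every library. Srebf1 exon 3 was at 98.9%, 98.9%, and 100% in WT and 98.5%, 100%, and 99.6% in Lpin1-/- liver, exon 15 was at 100% in 5 libraries and 99.9% in 1 WT library, and Fasn exon 36 was at 100% in 5 libraries and 99.6% in 1 Lpin1-/- library. Srebf1 exon 14 was at 100% in each WT library and at 96.9%, 100%, and 98.4% in Lpin1-/- liver (adjusted p = 0.28). Of 4 further versions of exon 14 with other ends and the same 4, 0, and 3 skipping reads in Lpin1-/- liver, 3 extend past it. These 3 were at 100% in each WT library and at 88.8% to 91.6%, 100%, and 93.7% to 95.2% in the Lpin1-/- libraries (unadjusted p = 0.024 to 0.026, adjusted p = 0.26 to 0.27). The difference between the fasted and refed results was not tested, since the tables hold different sets of libraries and were fitted apart.

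**Figure D4:**
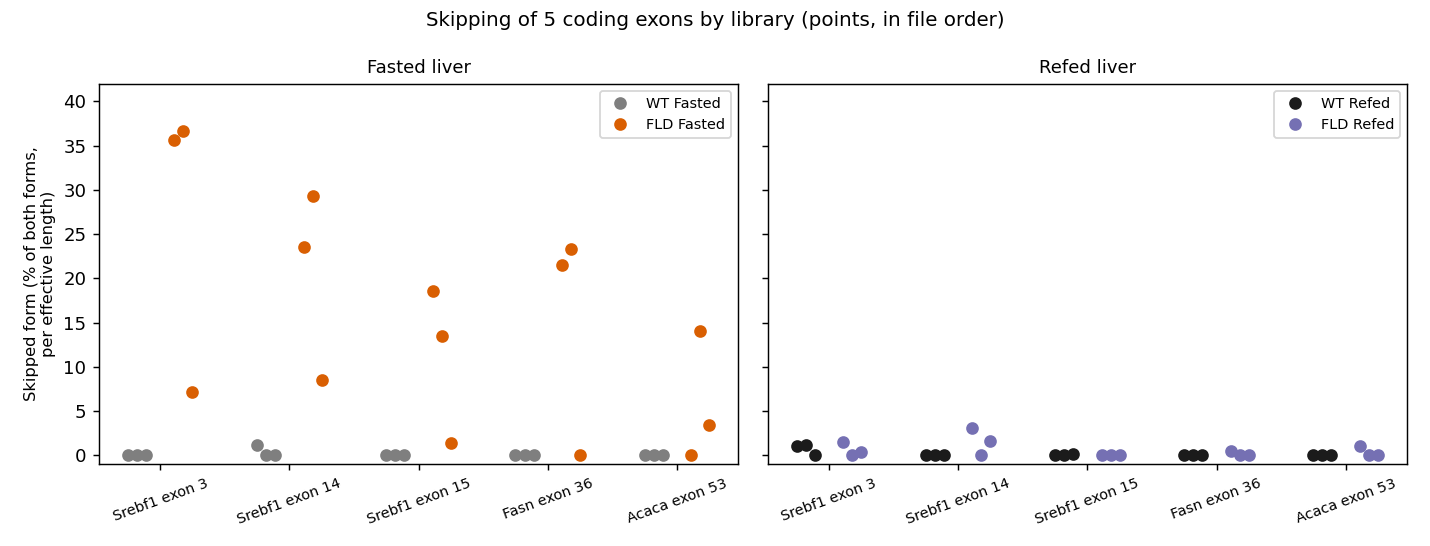
Skipped form as a percentage of both forms for 5 coding exons in each library, in fasted (left) and refed (right) liver. In fasted liver the Lpin1-/- points reach 36.6% for Srebf1 exon 3 and 29.4% for exon 14, the WT points lie at or near 0, and in refed liver no point is above 3.07%.

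Each carboxylase gene had 1 event past the threshold, in opposite directions. In Acacb, on chromosome 5, plus strand, a segment of 54 bases at 114233619 to 114233672, which is in no annotated transcript and lies in an intron, was included at 0.333%, 0%, and 0% in fasted WT and at 19.3%, 14.8%, and 14.2% in fasted Lpin1-/- liver (5.01 ± 0.65 higher, adjusted p = 0.00085). Its inclusion counts were 1, 0, and 0 in WT and 9, 38, and 24 in Lpin1-/- libraries. In refed liver it was at 0% in WT and at 4.78%, 0%, and 1.89% in Lpin1-/- liver (adjusted p = 0.59). Exon 53 of 56 of Acaca (155 bases, chromosome 11, plus strand, 84391510 to 84391664) passed the test with only 0, 3, and 1 skipping reads in the Lpin1-/- libraries and 24, 60, and 94 inclusion reads. Its groups overlapped at 100%, and the call was lost without WT library 1 or 3 or Lpin1-/- library 1 or 2 of the list (adjusted p = 0.065 to 0.10).

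A pair of short annotated alternative exons had higher inclusion values in every fasted Lpin1-/- library than in every fasted WT library, without a call. The 30-base exon 14 of Acly (chromosome 11, minus strand, 100503160 to 100503189) was included at 29.3% to 40.3% in fasted WT and 41.3% to 51.0% in fasted Lpin1-/- liver (0.76 ± 0.62, adjusted p = 0.47), and groups apart in this direction made up 7.63% of all fasted events. It was included at 34.4% to 39.5% and 24.99% to 37.1% in refed liver (adjusted p = 0.76). The 24-base exon 30 of Acaca (84290288 to 84290311) was at 64.1%, 78.7%, and 66.3% in fasted WT and at 100%, 100%, and 82.4% in fasted Lpin1-/- liver, with fewer than 10 counts in some of these libraries, so it was not tested there. In refed liver it was included at 29.97% to 61.1% in WT and 27.0% to 58.5% in Lpin1-/- liver (adjusted p = 0.84). The unannotated segments of Scd1, Thrsp, and Mlxipl that were listed most often were included at under 2% in every fasted library, and most of exon 8 of Me1 and exon 4 of Elovl6 were included at over 94% in every fasted library.

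Coverage along Fasn differed between libraries of a group. Reads per base on exon 41 were 2.77, 26.9, and 10.7 times those on exon 2 in fasted WT liver and 7.68, 6.46, and 2.74 times in fasted Lpin1-/- liver. After refeeding the ratio was 5.18, 6.95, and 7.42 in WT and 2.96, 8.81, and 7.94 in Lpin1-/- mice. A high ratio means that few reads come from the 5′ part of the transcript. The part of this in the RPKM and exon results was not tested.

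**Figure D5:**
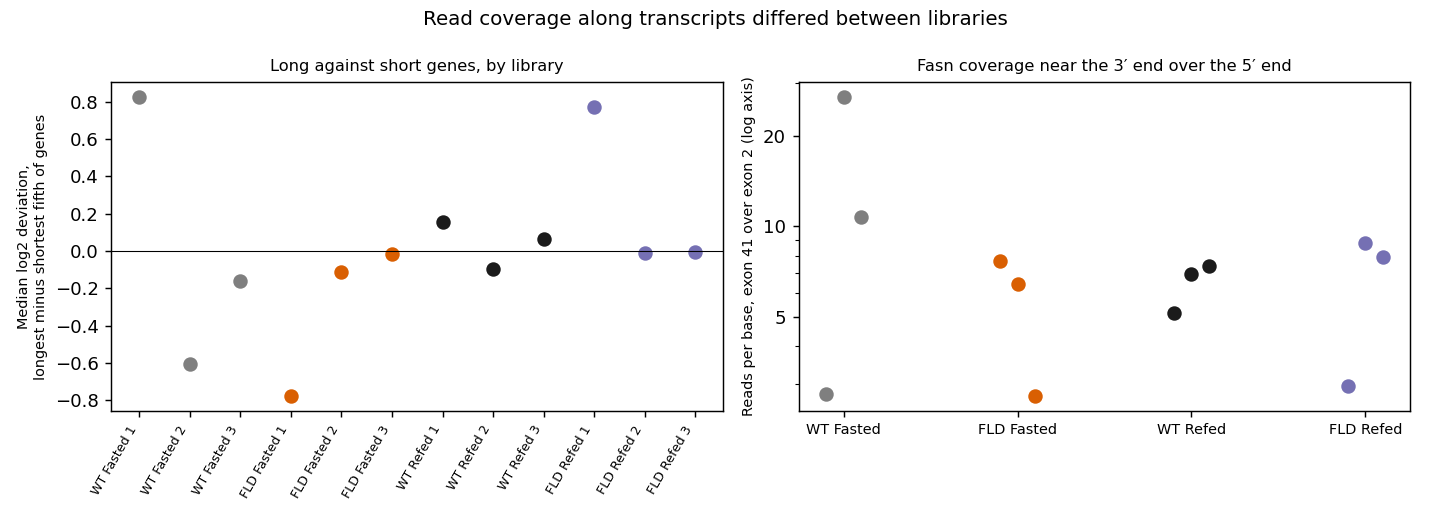
Left, median log2 deviation of the longest of 5 bins of genes minus that of the shortest in each library, from −0.78 to 0.82. Right, reads per base on Fasn exon 41 over exon 2 (log axis) in each library, from 2.74 to 26.9, with list positions that are not tied to the library numbers of the left panel.

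The rest of the pathway was read from 9 further lists. Their counts are to be read beside the shares of all tested genes past the same threshold. These were 1.52% higher and 0.2% lower on refeeding in WT liver, and 17.8% higher and 2.92% lower on refeeding in Lpin1-/- liver. By genotype, 5.63% were higher and 13.2% lower in fasted Lpin1-/- liver, and 2.6% were higher and 4.07% lower in refed Lpin1-/- liver. Of glucose entry genes and ChREBP partners and targets (15 tested), 5 rose and 1 fell on refeeding of Lpin1-/- mice. By genotype, 3 of the 15 were higher in refed Lpin1-/- liver, and in fasted liver 1 was higher (Txnip, 3.29) and 3 were lower, among them the glucose transporter Slc2a2 (−2.27, adjusted p = 0.0016).

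Of 17 SREBP processing genes and partners tested, 1 was higher and 2 lower in fasted Lpin1-/- liver and 1 was higher and 3 lower in refed Lpin1-/- liver. INSIG1 retains SREBP precursors in the endoplasmic reticulum, and Insig1 is itself an SREBP target. It was at 20.2, 18.2, and 36.01 RPKM in fasted WT and at 172, 113, and 56.4 RPKM in fasted Lpin1-/- liver (2.07, adjusted p = 0.0038). In refed liver the order was turned, with 71.0, 58.0, and 98.2 RPKM in WT and 9.13, 10.1, and 11.7 RPKM in Lpin1-/- mice (−2.74, adjusted p = 0.0026). The refeeding change differed between genotypes by −4.81 (adjusted p = 0.0033). Srebf2, the paralog of Srebf1 that encodes SREBP-2 of the cholesterol pathway, was lower in refed Lpin1-/- liver (−1.33 ± 0.27, adjusted p = 0.016). Srebf2 was at 14.96, 14.6, and 13.6 RPKM in refed WT and at 6.53, 4.42, and 4.56 RPKM in refed Lpin1-/- liver, and the call was lost without WT refed library 1 or Lpin1-/- refed library 2 or 3 (−1.30 to −1.25, adjusted p = 0.056 to 0.070).

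Supply genes come before the carboxylases. Of 14 tested genes of acetyl-CoA and malonyl-CoA supply and use, 1 rose and 2 fell with genotype in fasted liver and 2 rose and 2 fell in refed liver. Acetyl-CoA synthetase 2 (Acss2) was lower in fasted Lpin1-/- liver (−1.05, adjusted p = 0.013). Of 15 NADPH genes, 4 were lower in fasted Lpin1-/- liver, of which the cytosolic isocitrate dehydrogenase Idh1 was lowest (−1.22, adjusted p = 0.0037), 1 was lower in refed liver, and 1 rose on refeeding in Lpin1-/- liver (Rpe, 0.88). Of 14 other elongases and desaturases, 3 were lower in Lpin1-/- liver in each state, and on refeeding 1 fell in WT liver and 3 rose and 2 fell in Lpin1-/- liver. Elovl2, which acts on polyunsaturated fatty acids, was lower in fasted Lpin1-/- liver (−1.77, adjusted p = 0.0053). The paralog Scd2 passed no test, with a genotype difference of 0.54 ± 0.38 in fasted liver and −0.35 ± 0.38 in refed liver.

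Of 18 LXR and coactivator regulators, 2 were higher and 3 lower in fasted Lpin1-/- liver, 2 were lower in refed liver, and 1 rose and 2 fell on refeeding of Lpin1-/- mice. The bile acid receptor gene Nr1h4 was lower in fasted Lpin1-/- liver (−1.45) and rose there on refeeding (1.91). Of 12 partners of the carboxylases and of Spot 14 and subunits of AMPK, 3 rose on refeeding of Lpin1-/- mice, among them Mid1ip1 and the AMPK subunit Prkaa1 (1.18), 1 was higher in fasted Lpin1-/- liver (Sik1, 2.45), and 1 was higher in refed Lpin1-/- liver. Of 15 esterification and export genes, 1 was higher and 6 lower in fasted Lpin1-/- liver, and Gpat4, which starts glycerolipid synthesis, was higher in both states (1.60 and 1.88). On refeeding, 1 of the 15 rose in WT liver and 4 rose and 1 fell in Lpin1-/- liver, and in refed liver 2 were higher and 1 lower in Lpin1-/- mice. Of 14 fasting markers, 4 were higher and 3 lower in fasted Lpin1-/- liver, with differences of 5.54 for Ddit4 and 4.77 for Igfbp1, and 5 fell on refeeding of Lpin1-/- mice.

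The mean of the members, each scaled to a z score over the 12 libraries, was closest in pattern to Enthd2 (Pearson r = 0.92, Spearman rho = 0.91), Usp16 (0.92 and 0.92), Ube2j1 (0.91 and 0.92), Leng1 (0.91 and 0.95), and Gapdh (0.90 and 0.90), out of all tested genes that are no members. The points are the 12 libraries and share their groups and their scaling, so these are a description.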

How the data were processed

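Liver RNA of 12 mice was sequenced as stranded paired-end libraries, 1 per mouse and 3 per group by the labels. Gene levels were deposited by the authors as RPKM, after alignment to GRCm38 (HISAT2 2.0.5) and counting per gene (HTSeq 0.6.0, Ensembl release 84). Exon skipping was deposited by the authors as rMATS tables of inclusion and skipping counts in each library, with the effective length of each form as a score. Their own p-values were not used. No gene counts were used here, so no count model was run. The lists of each rMATS table were assigned to groups from a further table of WT mice, whose counts matched the WT list in all 1523 fasted and 1719 refed shared events. List positions carry no replicate number.

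The main test was limma 3.58.1 (R 4.3.3, trend) on log2(RPKM + 1) in 1 fit of the 4 groups. It kept 11507 genes whose mean reached 0.5 RPKM and adjusted p-values over them by Benjamini and Hochberg (threshold 0.05). Fold changes on this scale understate those of low genes. Exon events with 10 or more counts in each of 6 libraries were tested likewise on the log2 inclusion-to-skipping ratio per length, after adding 0.5. A count of 0 was taken to allow 3 counts, for counting error only. p-values measure the spread between these mice, and a fit without 1 library assumes a like spread in all groups. Both tests were tried on simulated data. Other settings were a pseudocount of 0.1, no filter or one of 5 RPKM, rescaling, the replicate number as a block, fits of 6 libraries, each library left out, and, for events, 20 counts or 1 added. The length adjustment and the fit without WT fasted library 1 and Lpin1-/- refed library 1 were chosen after seeing the data. Members, gene lists, and rules were chosen with earlier results of these data known. Named genes were the members, up to 2 genes of largest change past the threshold per list and comparison, Lpin1, 4 paralogs, the 5 genes of most similar pattern, and per member the event with most counts of its rarer form and each event past the threshold. Fasn exon 2 and 41 and the first-exon junctions were chosen after their values were seen. Deviations of same-numbered libraries correlated above 0.1 in all 3 pairs of refed WT and Lpin1-/- liver (0.16 to 0.30). They did not in every pair of the other comparisons (−0.47 to 0.25). A fit of the 6 refed libraries with the number as a block was therefore added after seeing the data. Fasted WT and refed Lpin1-/- liver, which were not compared directly, had higher correlations of same-numbered libraries, at 0.74, 0.54, and 0.39. The labels do not say what a number marks. Figures were made in matplotlib 3.10.9, with tables in pandas 2.3.3 and numpy 2.4.6 under Python 3.11.15. Gene models were from GENCODE M21 and promoters from RefSeq. The values of 1 gene of the further pathway lists are not reported here.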

Additional observations from a re-analysis of the deposited data

Results flagged for a closer look

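Outliers were not sought, since no group has more than 3 libraries. The refeeding change differed between genotypes, by the interaction term in limma, for 4 genes that are no members. The change in Lpin1-/- minus that in WT liver was −4.81 on the log2 scale for Insig1 (adjusted p = 0.0033), −2.26 for Acsl3 (adjusted p = 0.0066), and −2.49 for Txnip (adjusted p = 0.040). It was 2.04 for the bile acid receptor gene Nr1h4 (adjusted p = 0.0079). Acsl3 was at 5.04, 5.32, and 5.45 RPKM in fasted and 1.52, 1.24, and 1.29 RPKM in refed Lpin1-/- liver, and at 2.60, 1.53, and 2.13 RPKM in fasted and 3.27, 5.50, and 4.99 RPKM in refed WT liver. The Txnip call was lost without any 1 of 10 libraries, all but Lpin1-/- fasted libraries 1 and 3 (−2.70 to −2.18, adjusted p of up to 0.093).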

How the results depend on the processing

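The number of members past the threshold rested on settings. With all 12 libraries it was 1 for refeeding in WT, 4 for refeeding in Lpin1-/-, 2 for genotype in fasted liver, 1 for genotype in refed liver, and 0 for the interaction. For refeeding in WT it was 0 without the filter on low values, with median ratio rescaling, with only the 6 libraries compared, after the length adjustment, and without WT fasted library 1 and Lpin1-/- refed library 1 together. For refeeding in Lpin1-/- it was 2 without the filter, with rescaling, and after the length adjustment. Genotype in fasted liver gave 1 without the filter. Genotype in refed liver gave 2 with rescaling, with the 6 libraries, after the length adjustment, and without the 2 libraries. The interaction gave 1 (Acaca) with rescaling and after the length adjustment. With each library left out in turn, the numbers ranged from 0 to 1, 1 to 5, 1 to 3, 0 to 2, and 0 to 1. Exon events in members ranged from 9 to 22 in fasted and from 0 to 0 in refed liver. The number of members called was within 1.5 times with a pseudocount of 0.1 and with a minimum of 5 RPKM. Some of these fits had fewer libraries or more genes, and the causes of the changes in number were not tested.

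With the replicate number as a block, the number was 0 for refeeding in WT and 1 for genotype in fasted liver, and no other member count moved by more than 1.5 times. Of the comparisons made, same-numbered libraries deviated together in every pair only for genotype in refed liver, where a block over the 6 refed libraries gave 2 members (Acaca and Acacb, not Scd1) and 541 genes. Exon events carry no replicate number, and no paired fit was made for them.

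Over all genes the number past the threshold on refeeding in WT was 198, beside 50 with rescaling, 93 with the replicate block, and 0 with only the 6 libraries. It was 23 to 229 with each library left out, 23 to 88 without WT fasted library 2 or 3, WT refed 1 or 3, or Lpin1-/- refed 3, and it also moved by over 1.5 times without Lpin1-/- refed 2. The interaction gave 147 genes, beside 83 without the filter, 81 with the block, 321 with rescaling, 479 after the length adjustment, and 30 to 176 with each library left out (30 to 82 without any 1 of 8 libraries, all but WT fasted 1 and 2, Lpin1-/- fasted 3, and Lpin1-/- refed 1). Genotype in refed liver gave 767, beside 1409 after the length adjustment, and 243 to 1048 with each library left out (243 to 511 without any 1 refed library). Genotype in fasted liver gave 2168, beside 1011 with the 6 libraries and 1040 to 2316 with each library left out (1040 without WT fasted library 3 and 1438 without Lpin1-/- fasted library 1). Refeeding in Lpin1-/- gave 2382, and 1119 to 3105 with each library left out (1119 to 1584 without Lpin1-/- fasted library 1 or 2 or refed library 2 or 3). Events in fasted liver gave 7892, and 3821 to 9479 with each library left out, the highest without the third Lpin1-/- library of the list. Events in refed liver gave 633, beside 1334 with 1 added and 0 to 15 with each library left out.

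Of 2432 values of single genes and exons, 2102 kept their direction and side of the threshold, 234 lost a call, 37 gained one, and 59 changed sign, none of them past the threshold. With rescaling the sign changed for Acacb on refeeding in WT (−0.14), Scd1 on refeeding in Lpin1-/- (−0.17), and Acly by genotype in refed liver (0.037). After the length adjustment it changed for Acacb in WT (−0.15), Scd1 on refeeding in Lpin1-/- (−0.36), Mlxipl in fasted liver (0.12), and the interactions of Acly (−0.018) and Elovl6 (−0.23). Without the 2 libraries it changed for Scd1 (−0.37) and Thrsp (0.12) on refeeding in Lpin1-/-, Acly (0.039) and Mlxipl (0.13) in fasted liver, and the interactions of Acacb (−0.41), Acly (−0.11), and Scd1 (−0.10). With 1 added, exon 2 of Fasn in refed liver had 0.048.

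With each library left out, the values that changed sign ranged as follows. Refeeding in WT gave −0.43 to 0.70 for Acacb, −0.38 to 0.29 for Me1, and −0.037 to 0.59 for Mlxipl. Refeeding in Lpin1-/- gave −0.37 to 0.43 for Scd1, −0.47 to 0.18 for Thrsp, and −0.77 to 0.22 for Srebf1. Genotype in fasted liver gave −0.019 to 1.11 for Acacb, −0.65 to 0.039 for Acly, −0.16 to 0.37 for Elovl6, and −0.50 to 0.13 for Mlxipl, and genotype in refed liver gave −0.25 to 0.097 for Acly, −0.14 to 0.38 for Elovl6, and −0.76 to 0.090 for Scd2. The interaction gave −0.60 to 0.18 for Fasn, −0.10 to 1.02 for Acacb, −0.11 to 0.58 for Acly, and −0.22 to 0.32 for Elovl6. Among exon events, fasted liver gave −1.46 to 1.05 for Scd1, −0.88 to 0.035 for Me1, −0.71 to 0.49 for Thrsp, and −0.28 to 1.42 for Mlxipl, and refed liver gave −0.84 to 0.016 for Fasn, −0.97 to 0.019 for Acaca, −1.68 to 0.11 for Scd1, and −0.35 to 1.33 for Elovl6. With 3 mice per group, differences within the intervals given could not be seen.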
